A study of Homo sapiens with 9 samples.

Results

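Collagen chains, laminin chains and integrin subunits, the genes for the main fibrous and sheet-forming proteins outside the cell and for the receptors that hold cells to them, were followed in H1 human embryonic stem cells with and without HERVHlin on chromosome X. The members were all protein-coding rows of the deposited table whose symbol is COL, digits, A and digits, or LAMA, LAMB, LAMC, ITGA or ITGB followed by a digit, with ITGAV, ITGAL, ITGAM, ITGAX, ITGAE and ITGAD added. This gave 85 members of 60829 rows, of which 19955 are protein-coding. They comprise 44 collagen chains, 12 laminin chains, 26 integrin subunits, and 3 genes that match by spelling but encode proteins that bind integrin tails (ITGB1BP1, ITGB1BP2 and ITGB3BP). Total RNA depleted of ribosomal RNA was sequenced from 4 libraries of a control clone (genotype WT) and 5 libraries of a clone with chromosome X HERVHlin knocked out (genotype knock out). HERV-H elements are endogenous retroviruses known to be transcribed in pluripotent cells. Each genotype is 1 clone of the H1 line, and its libraries are successive passages that the design text treats as technical replicates, although the titles number them as biological ones. The effect of the knockout and other differences between these 2 clones cannot be told apart, and p-values measure only the spread between passages. Cells of both clones grew in mTESR medium on vitronectin, itself a ligand of RGD-binding integrins, and no laminin or Matrigel coat is named in the labels.

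Basement membranes are sheets made of a laminin network and a type IV collagen network, and pluripotent cells are held to them by integrins. A laminin is a trimer of an alpha, a beta and a gamma chain. A collagen is a triple helix of alpha chains, so chains of 1 molecule are needed together, and an integrin is a pair of an alpha and a beta subunit in which beta 1 serves many alphas. Human embryonic stem cells are known for attaching through ITGA6 with ITGB1 to laminins that contain LAMA5, and through ITGAV with ITGB5 to vitronectin.

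The 9 libraries held 19838682 to 31192630 reads. Protein-coding rows took 26.3% of reads in knockout 1 to 50.8% in control 3, and rows with miRBase-style IDs took 5.28% in control 3 to 31.4% in knockout 1. Of the 3 rows that the authors marked as knocked out, gene.human_00015544 measured 1316 to 3935 normalized counts in the control libraries and 25.9 to 73.0 in the knockout libraries (limma adjusted p = 0.00018). The second, gene.human_00001528, measured 312 to 1036 and 68.0 to 169 (limma adjusted p = 0.016), while gene.human_00011326 overlapped at 1711 to 3433 and 1149.5 to 1861 (log2 fold change -0.68, limma adjusted p = 0.44). The treatment label calls the cells differentiated, yet all 10 pluripotency markers were above the filter on low counts, summing to 37063 to 77992 in control and 30622 to 46235 in knockout libraries. LIN28A, at a mean of 11373, was the highest of them. All 10 had a negative log2 fold change, with a median of -0.39, and limma called none of them. Several markers of other types were at or near 0, among them SOX17, GATA6, FOXA2, LUM, FAP and MSGN1, the last with 0 reads in all 9 libraries. Each of these lists held other markers that were expressed. The highest markers of other types were THY1 of the fibroblast list, GABRP of the amnion list, NES of the neural list and KDR of the endothelial list. The highest of the blood list was HBG1 (mean 152), of the endoderm list AFP (48.1) and of the mesendoderm and mesoderm list TBX6 (32.0). In bulk RNA, fewer cells of a type and less RNA per cell cannot be told apart.

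COL4A1 and COL4A2, whose chains form the commonest type IV collagen helix at 2 of the first and 1 of the second, lie head to head on chromosome 13 and are transcribed away from a shared stretch. The bases between their RefSeq starts (GRCh38.p14, chr13:110307158-110307283, plus strand) are shown because the 2 genes gave different values below. Capitals mark the CCAAT match and the GGGCGG match, the first being the box bound by NF-Y and the second the GC box bound by Sp factors. COL13A1 had the largest log2 difference among the tested members, and the 250 bases before its RefSeq start (chr10:69801656-69801905, plus strand) are shown with its TATAAA match in capitals. That match lies near the end of the stretch farthest from the RefSeq start. The GENCODE start of COL13A1 (69801867) falls inside the printed stretch.
COL4A1-COL4A2 between starts: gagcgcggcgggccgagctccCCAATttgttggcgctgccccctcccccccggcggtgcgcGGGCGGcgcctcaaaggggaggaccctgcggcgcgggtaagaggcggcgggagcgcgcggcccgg
COL13A1 upstream: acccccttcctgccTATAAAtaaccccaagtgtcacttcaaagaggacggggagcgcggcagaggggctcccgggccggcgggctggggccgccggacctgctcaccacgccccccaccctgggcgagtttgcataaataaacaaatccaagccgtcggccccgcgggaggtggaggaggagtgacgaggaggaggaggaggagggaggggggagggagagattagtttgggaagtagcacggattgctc

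Both strands were searched for GGGCGG (the GC box), CCAAT (the NF-Y box), TATAAA (the TATA box) and TGANTCA (the AP-1 motif), and none of these overlaps another in the printed stretches. The 126 bases between the type IV starts are 80.2% G or C. Among 35116 RefSeq promoters, 34.6% held GGGCGG and 21.1% CCAAT in the 126 bases before the start. The 250 bases before COL13A1 are 64.0% G or C, and TATAAA occurred in 10.7% of promoter windows of that length. These matches are descriptions of the letters, not bound sites. The other type IV pairs lie head to head too, with 418 bases between the starts of COL4A3 and COL4A4 on chromosome 2 and 379 between those of COL4A5 and COL4A6 on chromosome X. RefSeq promoters were at hand for 61 of the 85 members.

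Receptor subunits stood highest. Levels between genes are given as the mean normalized count over all 9 libraries per 1000 exon bases (per kb), where a normalized count is a read count divided by the library's size factor. ITGB1 led at 429 per kb, followed by ITGA6 at 249 and ITGB5 at 249, with COL26A1 at 169, ITGB3BP at 167, COL18A1 at 132, COL9A3 at 117, LAMC1 at 110.3 and COL6A1 at 106. These 9 members were the ones at 100 per kb or more, 29 lay from 10 to 100, and 47 lay below 10, of which 14 were below 1. The family median per kb was 12.2 for laminins, 6.75 for collagens and 3.66 for integrins, so a few integrin subunits were far above a family that was mostly low. Each neighbour in this order of 9 had a range over the libraries that overlapped the next one's, so the order of neighbours is not resolved. The alpha and beta chains of the vitronectin receptor differed widely, with ITGAV at 44.0 per kb against ITGB5 at 249. Of the laminin chains, LAMC1, LAMA5 (65.3), LAMB2 (63.4) and LAMB1 (59.4) were the highest, which are chains of the trimers that embryonic stem cells bind.

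**Figure D1:**
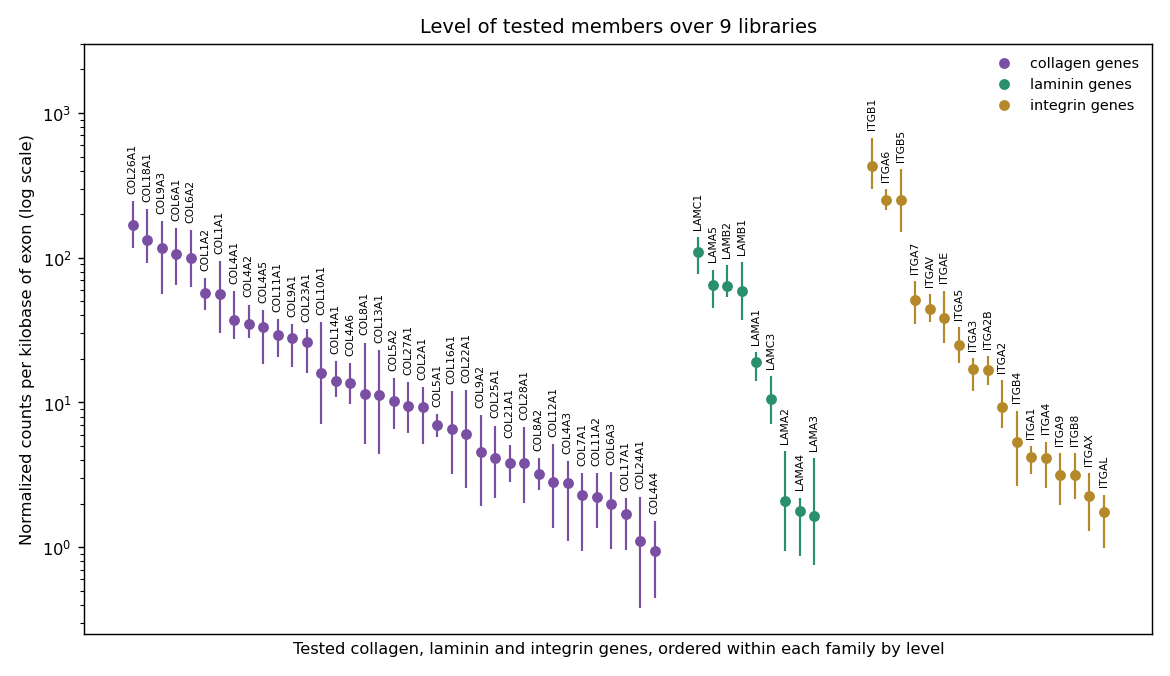
Mean level of 63 tested collagen, laminin and integrin chains per 1000 exon bases on a log axis, by family, with the line from the lowest to the highest of the 9 libraries. ITGB1, ITGA6 and ITGB5 stand above all collagens and laminins at 429, 249 and 249 per kb, while most members of each family lie below 100 per kb.

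COL13A1, COL6A1 and COL4A1 were among the members with the smallest p-values, with log2 fold changes of -1.51, -0.78 and -0.55 and every knockout library below every control library. The main test called none of them, while DESeq2 and the authors' deposited table called all 3. After the filter on low counts, 67 members were tested, 37 collagens, 10 laminins, 17 integrins and the 3 binding protein genes. Across 27777 tested rows, limma (log2 of the value plus 1, Benjamini-Hochberg adjustment, threshold 0.05) called 150, or 0.540%, of which 32 were higher and 118 lower in the knockout clone. With the passage number as a block, 43 rows were called, and since knockout 5 has no control partner, its values do not enter the block's fold changes. Without knockout 5 and with no block, 82 rows were called. No member was called by limma, with or without the block, or by edgeR on the recovered reads (0.544% of rows). Unadjusted limma p-values under 0.05 were found for 14 of 67 members, 20.9%, each lower in the knockout libraries, against 5.05% of all tested rows lower and 6.66% of protein-coding rows. Among them were LAMC3, LAMA2, COL13A1, COL6A1, COL6A2, COL4A1, COL14A1, COL5A2, COL18A1, COL1A1, ITGA9, ITGB1 and ITGB5. None was higher, against 3.58% of all rows, and edgeR gave the same number, 14, at an unadjusted p under 0.05 (7.90% of rows in either direction). DESeq2 called 4 members lower (COL13A1, COL6A1 and COL4A1 among them; 1.62% of all rows were called lower) and none higher (0.518% of all rows), with adjusted p from 0.00024 to 0.040, and gave 14 members, and 8.50% of all rows, an unadjusted p under 0.05. In the authors' deposited table the same 4 members are those with an adjusted p under 0.05, where 1.94% of the tested rows are lower.

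Negative log2 differences outnumbered positive ones among the members, as they did among protein-coding rows. Of the 67, 46 (68.7%) had a negative log2 fold change, against 63.4% of the 14752 tested protein-coding rows and 49.0% of all tested rows. The median was -0.15 for members, -0.09 for protein-coding rows and 0.01 for all rows. Without control 3 these medians were -0.21, 0.02 and 0.03, and with quantile normalization -0.24, -0.02 and 0.01. Without control 4 they were -0.16, -0.17 and 0.01, the members being no lower than protein-coding rows. The distance of the members from protein-coding rows thus depended on the libraries kept and on the scaling. By family the median was -0.41 for laminins, -0.15 for collagens and -0.05 for integrins, the integrin one turning to 0.06 with size factors from protein-coding rows and to 0.0013 without knockout 5. In 7 of the 67 tested members every knockout library lay below every control library (10.4%, against 2.60% of all rows and 3.35% of protein-coding rows). Among them were COL13A1, COL6A1, COL4A1, COL14A1, ITGA9 and LAMA2, and no tested member had all knockout libraries above, against 1.35% of all tested rows. In ITGA9 and LAMA2 the gap between the groups was smaller than 1 read.

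**Figure D2:**
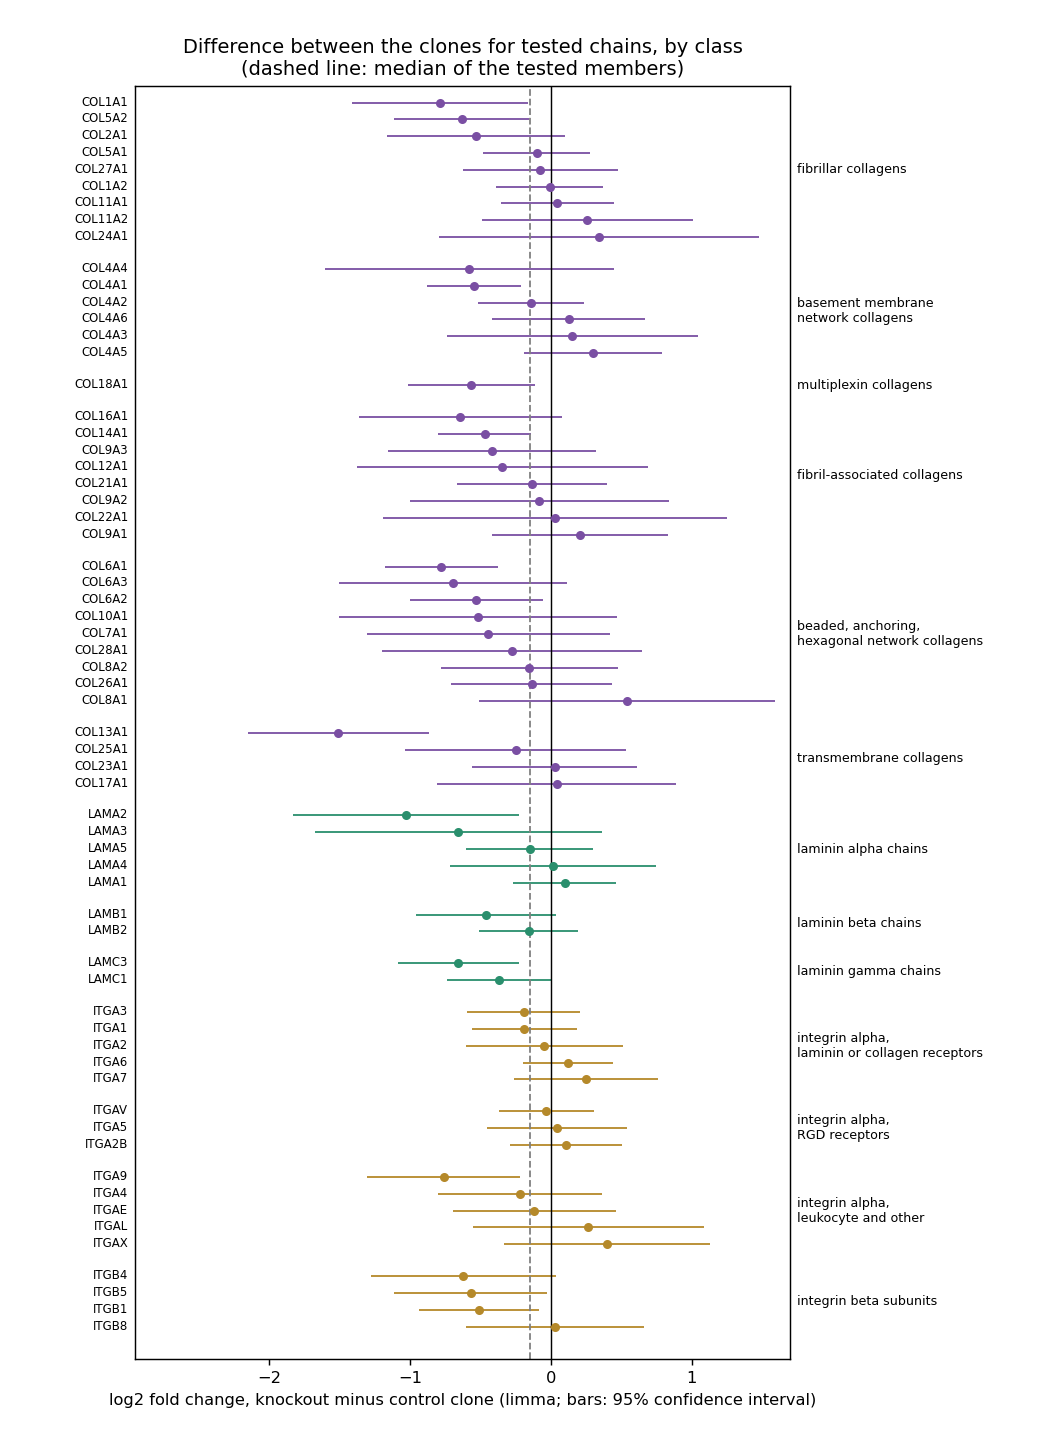
Log2 fold change of 63 tested members, knockout minus control, with 95% confidence intervals from limma, ordered by structural class, and a dashed line at the members' median of -0.15. COL13A1 (-1.51) and LAMA2 (-1.03) lie farthest to the lower side, and intervals of most other members cross 0.

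LAMA3 and LAMB3, laminin chains of epithelia, were low in these cells. LAMA3, the alpha 3 chain, measured 11.7 to 60.5 in control and 11.1 to 28.7 in knockout libraries (log2 fold change -0.66 with SE 0.46, limma adjusted p = 0.75), and LAMB3, the beta 3 chain, was below the filter at 3.61 to 12.4 and 1.49 to 3.38. The summed trophectoderm and amnion markers, epithelial types, ran from 1748 to 4599 in control and 661 to 1786 in knockout libraries. The sum was carried by GABRP (log2 fold change -1.74, limma adjusted p = 0.10), with CDX2, TFAP2A, GATA3 and HAND1 near 0. KRT7, the other tested marker of the list, had a mean of 161 and differed little (log2 fold change -0.16, limma adjusted p = 0.88). The part of these markers in the laminin values was not tested.

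LAMC1, the gamma 1 chain of most basement membrane laminins, measured 1152, 1169.9, 982 and 918 in the control and 1000.1, 920.0, 856, 697 and 648 in the knockout libraries. The groups overlap, since knockout 1 and knockout 2 exceeded the lowest control (log2 fold change -0.37 with SE 0.17, limma adjusted p = 0.58, 95% interval -0.74 to 0.00). LAMC3, the gamma 3 chain, measured 75.4, 115, 104 and 112 and 53.6, 65.4, 57.1, 63.5 and 78.9, where knockout 5 lay above control 1 (log2 fold change -0.66 with SE 0.19, limma adjusted p = 0.26). The beta chains that pair with them had means of 571 ± 146 (SD, n = 4) and 413 ± 91.4 (SD, n = 5) for LAMB1 (log2 fold change -0.46 with SE 0.22, limma adjusted p = 0.62) and 465 ± 103 (SD, n = 4) and 411 ± 23.2 (SD, n = 5) for LAMB2 (log2 fold change -0.16 with SE 0.16, limma adjusted p = 0.81). LAMB1 shares exon bases with DLD on the opposite strand, and no label or note says whether the strand was used in counting.

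The alpha chains, which carry the integrin-binding domains, were mixed. LAMA5, the alpha chain of the laminin most used to culture these cells, had means of 991 ± 219.6 (SD, n = 4) and 886 ± 157 (SD, n = 5) (log2 fold change -0.15 with SE 0.20, limma adjusted p = 0.85), and its interval of -0.60 to 0.30 covers 0. LAMA1, the early embryonic alpha chain, had means of 292 ± 59.6 (SD, n = 4) and 309 ± 26.1 (SD, n = 5) (log2 fold change 0.10 with SE 0.16, limma adjusted p = 0.88, interval -0.27 to 0.46). LAMA2, the alpha chain of muscle laminin, measured 47.8, 18.6, 20.1 and 38.8 in the control and 15.3, 13.5, 12.8, 9.72 and 18.4 in the knockout libraries (log2 fold change -1.03 with SE 0.36, limma adjusted p = 0.41). These LAMA2 groups do not overlap, but control 2 (18.64) lies less than 1 read above knockout 5 (18.43), since 1 read in control 2 is 1.55 normalized counts. Control 3 lies within a few counts of the highest knockout, and the gene is low at 2.09 per kb. LAMA4 was at 1.77 per kb with a log2 fold change of 0.01, and LAMB4 was below the filter.

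COL4A1 (chr13:110148963-110307233, minus strand) and COL4A2 (chr13:110305812-110513209, plus strand), the pair whose shared upstream bases are printed above, gave unequal values. These GENCODE spans overlap, while the printed bases lie between the RefSeq starts. COL4A1 measured 864, 589, 625 and 583 normalized counts in the control and 470.3, 452, 486, 404 and 435 in the knockout libraries. All 5 knockout libraries lay below the lowest control, with means of 665 ± 134 (SD, n = 4) and 449 ± 31.6 (SD, n = 5) (log2 fold change -0.55 with SE 0.15, limma adjusted p = 0.21, 95% interval -0.88 to -0.21). Control 1 stands far above the other controls, and without it the log2 fold change was -0.42. The authors' deposited table gives COL4A1 an adjusted p of 0.012.

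COL4A2 measured 917, 716, 546 and 673 and 696, 658, 611, 691 and 534 with overlapping groups (log2 fold change -0.14 with SE 0.17, limma adjusted p = 0.83, interval -0.52 to 0.23). The ratio of COL4A1 to COL4A2 was 0.94, 0.82, 1.15 and 0.87 in the control and 0.68, 0.69, 0.79, 0.58 and 0.81 in the knockout libraries, below in all 5. The X-linked pair, COL4A5 and COL4A6, had log2 fold changes of 0.30 (SE 0.22) and 0.13 (SE 0.24). COL4A3 and COL4A4, chains of the mature kidney filter, were at 2.79 and 0.935 per kb. The summed level of the 8 endothelial markers, a cell type rich in type IV collagen, ran from 821 to 1240 in control and 459 to 647 in knockout libraries, and KDR, TEK and TIE1 were lower without overlap while ERG ran the other way. Only 4 of the 8 had a mean of 10 or more, while PECAM1, CDH5 and VWF were near 0, and their part in the values of COL4A1 was not tested.

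COL18A1, a basement membrane collagen with heparan sulfate chains whose end fragment is endostatin, was the highest of the basement membrane collagens. It measured 1084, 1844, 1514 and 1099 in the control and 1046, 1139.9, 784, 819 and 826 in the knockout libraries (log2 fold change -0.57 with SE 0.20, limma adjusted p = 0.42). Controls 1 and 4 lie between knockouts 1 and 2, so the groups overlap, while controls 2 and 3 are well above. COL18A1 shares exon bases with SLC19A1 on the opposite strand. Its relative COL15A1 was below the filter at a mean of 9.77.

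Type I collagen, the main fibril of skin, tendon and bone, is built from 2 alpha 1 chains and 1 alpha 2 chain, and the pair gave unequal values here as well. COL1A1 measured 783, 935, 700.1 and 444 in the control and 537, 586, 354, 313 and 296 in the knockout libraries (log2 fold change -0.78 with SE 0.28, limma adjusted p = 0.42, interval -1.41 to -0.16). Control 4 lay below knockouts 1 and 2, so the groups overlap. COL1A2 measured 802, 651, 633 and 487 and 687, 744, 596, 538 and 603 (log2 fold change -0.01 with SE 0.17, limma adjusted p = 0.99, interval -0.39 to 0.37), a difference whose sign turned under 5 alternatives that kept every library and under the block. The ratio of COL1A1 to COL1A2 was 0.98, 1.44, 1.11 and 0.91 in controls and 0.78, 0.79, 0.59, 0.58 and 0.49 in knockouts, with no overlap.

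Of the other fibrillar collagens, COL5A2, which nucleates type I fibrils, had means of 95.4 ± 15.9 (SD, n = 4) and 61.8 ± 14.1 (SD, n = 5) (log2 fold change -0.63 with SE 0.21, limma adjusted p = 0.39). COL2A1, the cartilage collagen, had means of 73.3 ± 11.9 (SD, n = 4) and 52.8 ± 20.8 (SD, n = 5) (log2 fold change -0.53 with SE 0.28, limma adjusted p = 0.66). COL11A1 was the highest of these others at 29.3 per kb and had a log2 fold change of 0.05, with COL5A1 at -0.10, COL27A1 at -0.08, COL11A2 at 0.26 and COL24A1 at 0.34. COL3A1, the partner of type I collagen in soft tissue, was near 0 with a mean of 0.717 in control and 3.06 in knockout libraries and was not tested. In all, 9 of 11 fibrillar collagens were tested, 6 had a negative difference, and their median was -0.08. The fibroblast marker sum, carried by THY1, was 2467 to 4469 in control and 2089.7 to 3331 in knockout libraries, with LUM, FAP, POSTN and PRRX1 near 0. Of its 5 tested markers, THY1, PDGFRA and PDGFRB had log2 fold changes of -0.23, -0.81 and -0.72 (limma adjusted p = 0.82, 0.68 and 0.37). DCN and TWIST2 ran the other way at 0.12 and 0.20. The part of these markers in the fibrillar values was not tested.

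Type VI collagen forms beaded filaments next to basement membranes, from the chains COL6A1, COL6A2 and COL6A3. COL6A1 (chr21:45981737-46005050, plus strand) measured 854, 799, 656 and 621 in the control and 577, 416, 440.2, 371 and 348 in the knockout libraries. The highest knockout lay below the lowest control (log2 fold change -0.78 with SE 0.18, limma adjusted p = 0.13, interval -1.18 to -0.38), and the authors' deposited table gives COL6A1 an adjusted p of 0.0033. COL6A2, its neighbour on chromosome 21, measured 839, 646, 517 and 561 and 583, 523, 426, 360.2 and 338 with overlap (log2 fold change -0.53 with SE 0.21, limma adjusted p = 0.51). COL6A3 was low at 1.98 per kb (log2 fold change -0.69 with SE 0.36, limma adjusted p = 0.65). The ratio of COL6A1 to COL6A2 overlapped, at 1.02 to 1.27 in controls and 0.80 to 1.03 in knockouts.

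COL26A1, the highest collagen per kb, had means of 569 ± 189 (SD, n = 4) and 506 ± 118 (SD, n = 5) (log2 fold change -0.14 with SE 0.25, limma adjusted p = 0.89). COL8A1, a hexagonal network collagen of the vessel wall, varied widely, at 72.3, 137, 62.0 and 55.1 in the control and 244, 125, 162, 70.3 and 48.6 in the knockout libraries (log2 fold change 0.54 with SE 0.47, limma adjusted p = 0.80). Its knockout libraries spread from below all controls to above all of them. The other hexagonal network chains, COL10A1 and COL8A2, had log2 fold changes of -0.52 and -0.15, and COL7A1 and COL28A1 had -0.44 and -0.28, all with overlap. Of the fibril-associated collagens, COL14A1, on chromosome 8, measured 146, 131, 129 and 167 and 103, 97.0, 102, 94.2 and 117, without overlap (log2 fold change -0.47 with SE 0.15, limma adjusted p = 0.31). COL9A3, the highest of that class at 117 per kb, had means of 637 ± 169 (SD, n = 4) and 506 ± 237 (SD, n = 5) (log2 fold change -0.42 with SE 0.33, limma adjusted p = 0.78) and shares exon bases with TCFL5. The remaining tested members of that class, COL9A1, COL9A2, COL12A1, COL16A1, COL21A1 and COL22A1, ranged from -0.64 in COL16A1 to 0.21 in COL9A1.

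COL13A1 (chr10:69801867-69964275, plus strand) is a collagen that spans the cell membrane and sits at adhesion sites and the neuromuscular junction. It measured 53.1, 135, 112 and 119 normalized counts in the control and 33.5, 25.9, 38.4, 35.1 and 39.8 in the knockout libraries. The knockout values are closely grouped and all below the controls, but control 1 is well under the other controls. The means were 105 ± 35.8 (SD, n = 4) and 34.6 ± 5.44 (SD, n = 5) (log2 fold change -1.51 with SE 0.29, limma adjusted p = 0.065, interval -2.15 to -0.86). Without control 1, limma gave a log2 fold change of -1.80 with an adjusted p of 0.012, and the authors' deposited table gives COL13A1 an adjusted p of 4.4e-05. The other membrane-spanning collagens had log2 fold changes of 0.03 for COL23A1, 0.04 for COL17A1 and -0.25 for COL25A1, and the COL23A1 sign turned under quantile normalization, the block and the removal of control 3 with knockout 1.

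**Figure D3:**
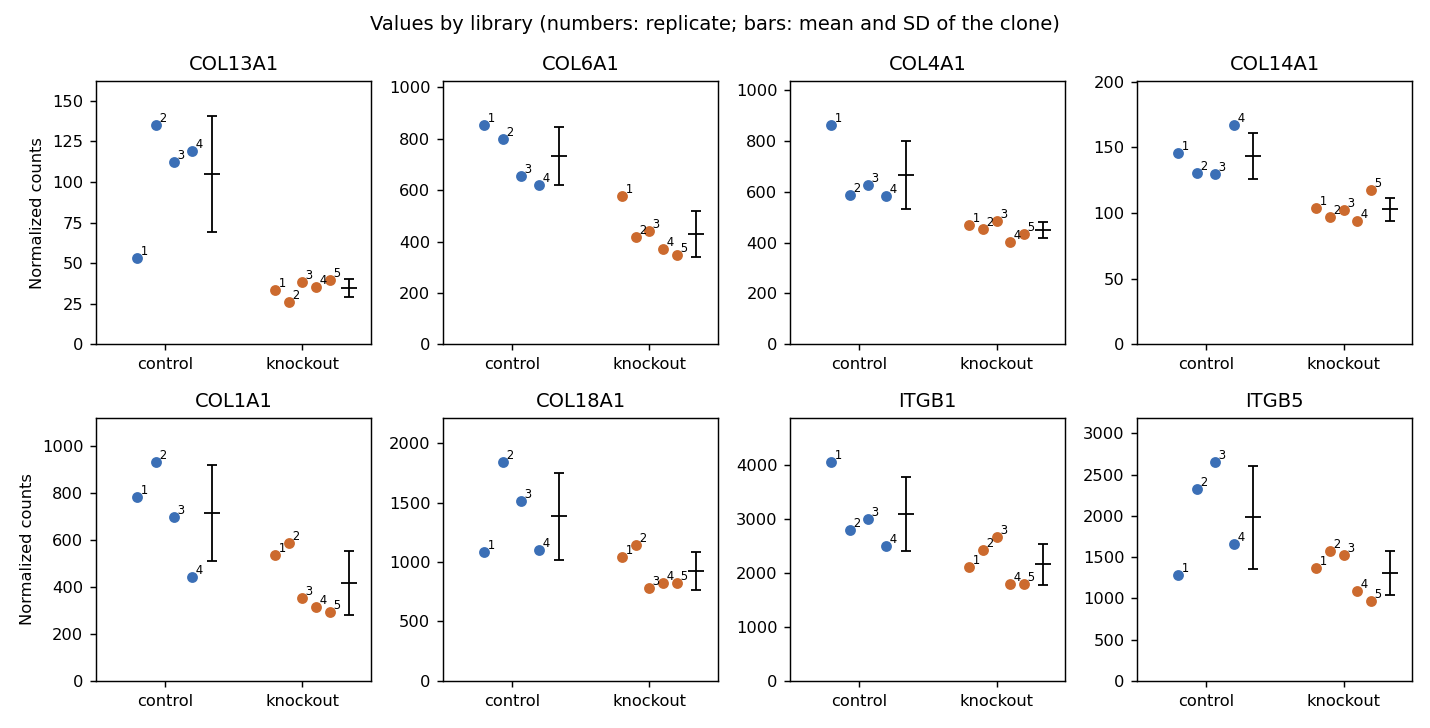
Normalized counts of COL13A1, COL6A1, COL4A1, COL14A1, COL1A1, COL18A1, ITGB1 and ITGB5 in each library of the control clone (4 points) and the knockout clone (5 points), with the mean and SD. Knockout libraries lie below every control library in COL13A1, COL6A1, COL4A1 and COL14A1 and overlap the controls in the other 4 genes.

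Among integrins, the abundant beta subunits ITGB1 and ITGB5 had negative differences at an unadjusted p under 0.05, and the differences of their main alpha partners were close to 0. ITGB1, the shared partner of the laminin, collagen and fibronectin receptors, measured 4072, 2797, 3004 and 2505 in the control and 2119.9, 2432, 2668, 1795 and 1795 in the knockout libraries. Knockout 3 lay above control 4, so the groups overlap (log2 fold change -0.51 with SE 0.19, limma adjusted p = 0.45), and control 1 is the highest library. ITGB5, the beta subunit of a vitronectin receptor, measured 1280.3, 2326, 2658 and 1662 and 1369.8, 1577, 1523, 1089.7 and 973, where control 1 lay below 3 knockouts (log2 fold change -0.57 with SE 0.24, limma adjusted p = 0.56). ITGB4, the hemidesmosome subunit that pairs with ITGA6, was low at 5.32 per kb (log2 fold change -0.62 with SE 0.29, limma adjusted p = 0.61), and ITGB8 had a log2 fold change of 0.03. ITGB2, ITGB3, ITGB6 and ITGB7 were below the filter, with ITGB2 at 5.31 to 20.2 in control and 1.13 to 3.69 in knockout libraries, ITGB3 at 1.55 to 5.23 and ITGB6 with 0 reads.

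ITGA6, the laminin receptor alpha subunit and a surface marker of stem cells, measured 1421, 1743, 1656 and 1393 in the control and 1658, 1528, 1446, 1865 and 1956 in the knockout libraries. Its groups overlap (log2 fold change 0.12 with SE 0.14, limma adjusted p = 0.83, interval -0.20 to 0.44). ITGAV, which binds vitronectin and fibronectin, measured 343, 346, 366 and 399 and 371, 345, 459, 297 and 324 (log2 fold change -0.03 with SE 0.15, limma adjusted p = 0.96, interval -0.37 to 0.30). That difference is close to 0, and its sign turned under 4 alternatives that kept every library and under the block. ITGA5, the fibronectin receptor, had means of 186 ± 45.1 (SD, n = 4) and 192 ± 44.4 (SD, n = 5) (log2 fold change 0.05 with SE 0.22, limma adjusted p = 0.96). ITGA7, another laminin receptor, had a log2 fold change of 0.25, ITGA3 of -0.19, and the collagen receptors ITGA2 and ITGA1 of -0.05 and -0.19. None of these 7 alpha subunits had an unadjusted limma p under 0.05, while their intervals still allow moderate differences either way.

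ITGA9, a receptor for tenascin and osteopontin, was the alpha subunit with the smallest p. It measured 27.6, 35.7, 35.6 and 37.0 in the control and 16.3, 19.2, 26.8, 16.4 and 20.6 in the knockout libraries, without overlap (log2 fold change -0.76 with SE 0.24, limma adjusted p = 0.34), although knockout 3 came within 1 count of control 1. ITGAE, which pairs with ITGB7 on lymphocytes, had a log2 fold change of -0.12 (38.5 per kb) although ITGB7 was below the filter. ITGAE shares exon bases with HASPIN on the opposite strand, so its level may hold reads of that gene. ITGA4 had a log2 fold change of -0.22 and the platelet subunit ITGA2B of 0.11. The leukocyte subunits ITGAL, ITGAX, ITGAM, ITGAD and ITGB2 were all below 2.5 per kb, and PTPRC, the pan-leukocyte marker, lay between 4.51 and 13.3 normalized counts. Of the integrin-binding genes, ITGB3BP (also a kinetochore component) had a log2 fold change of 0.03, ITGB1BP1 of -0.11 and ITGB1BP2 of -0.06.

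The 18 untested members were COL15A1, COL5A3, COL19A1, COL20A1, COL3A1, COL6A5 and COL6A6, LAMB3 and LAMB4, and ITGAM, ITGAD, ITGA8, ITGA10, ITGA11, ITGB2, ITGB3, ITGB6 and ITGB7. Their means over all libraries were 9.79 normalized counts or lower, and with no filter limma called none of them. Without the filter, 3 of the 17 with any reads had an unadjusted limma p under 0.05, against 3492 of all 48346 rows fitted so. They were ITGB2 (log2 fold change -1.36, limma adjusted p = 0.53), LAMB3 (-1.17, adjusted p = 0.54) and COL3A1 (1.18, adjusted p = 0.69). The clones did not overlap in ITGB2 and LAMB3, lower in the knockout libraries, or in ITGA11, at 5.47 to 6.38 in control and 6.73 to 11.3 in knockout libraries. These 3 had only 46, 38 and 70 reads over all 9 libraries. Among rows above the filter 2.60% were lower and 1.35% higher without overlap, and no such share was taken below it. Exons of 36 of the 85 members share bases with another annotated gene. COL13A1, COL6A1 and COL4A1 share none, while COL4A2 shares bases with COL4A2-AS1 and COL4A2-AS2 on the opposite strand.

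Ratios of chains that assemble together were compared within each library, a choice of 9 pairs made after values were seen and given with no test. In 2 of them, COL4A1 to COL4A2 and COL1A1 to COL1A2 as above, the knockout libraries lay below all control libraries. ITGB1 to ITGA6 was 1.60 to 2.87 in controls and 0.92 to 1.84 in knockouts, and ITGB5 to ITGAV was 3.73 to 7.25 and 3.00 to 4.57, both with overlap. A ratio within a library does not depend on its size factor, and it shows unequal values of the 2 chains, not which of them differs.

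**Figure D4:**
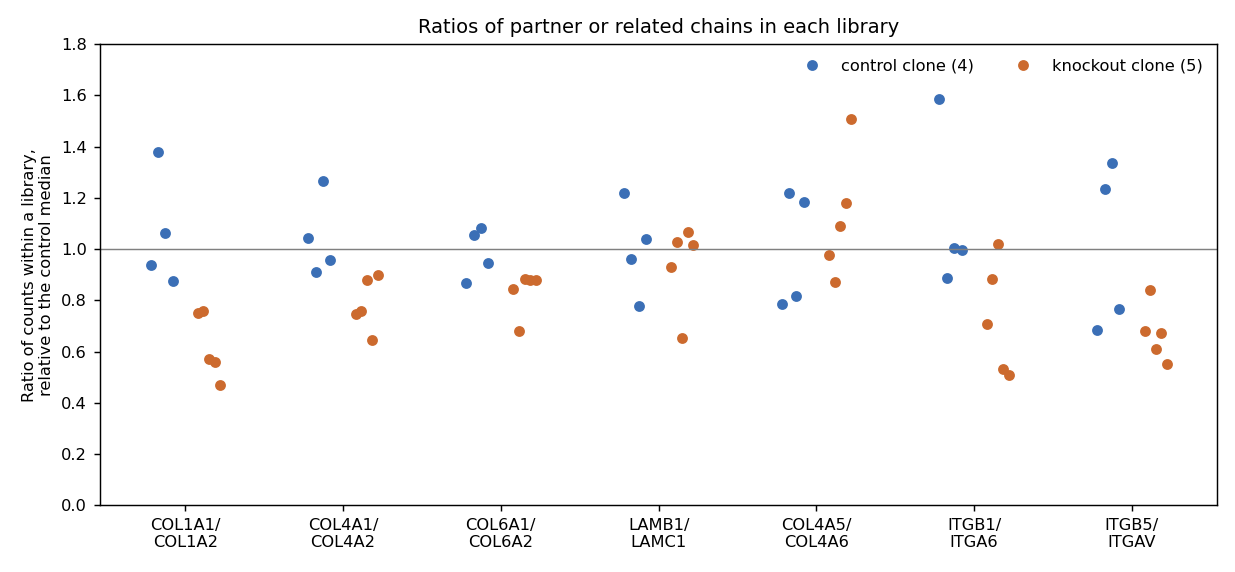
Ratio of normalized counts for pairs of chains in each library, divided by the control median of that ratio, for control and knockout libraries. COL1A1 to COL1A2 and COL4A1 to COL4A2 have all 5 knockout libraries below the 4 control libraries, and the other pairs overlap. COL4A3 to COL4A4 and LAMA5 to LAMC1, which overlap too, are not drawn.

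The summed level of each family was lower on average in the knockout libraries, with overlapping ranges. All members together summed to 22484 ± 1707 (SD, n = 4) normalized counts in control and 18404 ± 1624 (SD, n = 5) in knockout libraries, with ranges of 20233 to 23846 and 16658 to 20488 that overlap. Collagens summed to 8991 ± 995 and 7134 ± 957, integrins to 8384 ± 704 and 6899 ± 568, and laminins to 3710.3 ± 496 and 3016 ± 271, in the same order. The median log2 deviation of the tested members from their mean over all libraries was 0.24, 0.22, -0.01 and 0.15 in controls 1 to 4 and 0.02, 0.03, -0.16, -0.21 and -0.25 in knockouts 1 to 5. Control 3 lay below the other controls and below knockouts 1 and 2 for these genes, yet it was the library where protein-coding rows with a mean of 100 or more had a median deviation of 0.47. The members were taken at any level above the filter, so these medians cover unlike ranges of level. The abundant members ITGB5 (2658) and COL26A1 (781) were highest in control 3. Knockout 5 held the lowest value of 16 and control 1 the highest value of 17 of the 67 members.

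**Figure D5:**
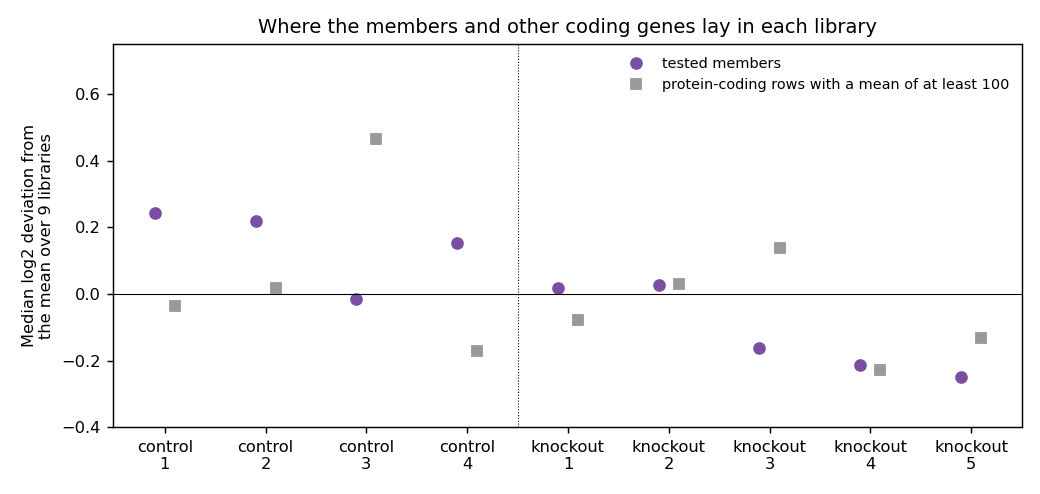
Median log2 deviation from the mean over all libraries, per library, for the 67 tested members and for protein-coding rows with a mean of 100 or more. Members run from 0.24 in control 1 to -0.25 in knockout 5, while protein-coding rows are highest in control 3 at 0.47.

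Genes that make, modify or bind these proteins were followed in 4 further lists, and limma and edgeR called none of their genes. DESeq2 called 3 of them, all lower, FBLN1 and SDC2 among them, against 1.62% of all tested rows called lower. For comparison, 5.05% of all tested rows and 6.66% of protein-coding rows were lower at an unadjusted limma p under 0.05. At the same threshold 3.58% and 2.45% were higher, and the median of protein-coding rows was -0.09. Of 27 tested genes of collagen synthesis and crosslinking, 3 (11.1%) had an unadjusted p under 0.05 and were lower. None was higher, and the median was -0.16. PCOLCE, which speeds removal of the procollagen tail, had a log2 fold change of -0.56 and PPIB, a prolyl isomerase of the procollagen folding complex, of -0.49, while LOXL3, a crosslinking enzyme, was at 0.16 and MIA3, which loads collagen for export, at 0.10. Of 26 other matrix proteins, 9 were lower (34.6%) and 1 was higher (3.8%) at that threshold, with a median of -0.10. FBLN1, a basement membrane glycoprotein, had a log2 fold change of -0.37. The higher one was FBN2, an embryonic microfibril protein, at 76.1 to 146 in control and 150.4 to 216 in knockout libraries (log2 fold change 0.72 with SE 0.20, limma adjusted p = 0.24), and EMILIN1, an elastic fibre protein, was among the lower at -1.06. FBN1, the adult relative of FBN2, was at 0.36.

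Of 12 other matrix receptors, 5 were lower (41.7%) and 1 was higher (8.3%) at an unadjusted p under 0.05. Their median was -0.39, and the shares over all tested rows are those given above. DDR2, a collagen-binding kinase, had a log2 fold change of -1.34 and SDC2, a heparan sulfate coreceptor, of -0.85, while CD47, an integrin-associated protein, was at 0.52 and DDR1, the relative of DDR2, at 0.16. Of 32 proteins that link integrins to the cytoskeleton, 4 were lower (12.5%) and 1 was higher (3.1%), with a median of -0.13. PTK2, the focal adhesion kinase, was at 0.34. TNS3, a tensin that binds beta integrin tails, was at -0.65, and the kinase SRC at 0.17.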

How the data were processed

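Libraries of rRNA-depleted total RNA were made with a stranded Illumina kit, per the labels' protocols. The tools fastp, kallisto and DESeq2 and the build hg38 are listed, with no role, in the submitters' processing notes. Annotation release and strand setting: not given in the sources used here. For each library the deposited signal is a normalized gene count, the authors having scaled reads by a library size factor. The authors' log2 fold changes, test score and p-values stand in the same deposited table. Within a tolerance of 1e-06, 100% of values were whole multiples of the smallest, so reads were recovered, and edgeR on these reads called 151 rows.

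Rows were kept by edgeR's filterByExpr with a minimum count of 10 (27777 of 60829). The main test was limma 3.58.1 with a trend on log2(value + 1), Benjamini-Hochberg over all tested rows, threshold 0.05, and a fold change on this scale understates the change of low genes. edgeR 4.0.16, DESeq2 1.42.0 in R 4.3.3, other scalings (TMM, quantile, protein-coding size factors), pseudocounts of 0.5 and 5, no filter, the replicate block, each library left out, and control 3 with knockout 1 left out (added after seeing the data) were alternatives. The limma fit was tested on simulated data, and the other steps were not. Gene positions and exon lengths came from GENCODE release 29, sequences from RefSeq GRCh38.p14. Long, seldom used exons lower a level per kb.

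The batch label numbers the passages in both clones and was taken as pairing them. Deviations of same-numbered libraries correlated at 0.07, 0.02, 0.25 and 0.33 for replicates 1 to 4, and knockout 5 has no partner. No libraries agreed within sampling noise. Members and lists were chosen with earlier results of these data known. Named members were the 15 with the smallest unadjusted p, the 12 with the highest mean, the highest of each class and a fixed list of 19. Others are named to account for every member, and some items are not reported here, though the counts hold them. Of the lists outside the members, the 2 genes with the smallest p in each direction, and others called by DESeq2, follow the same rule.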

Additional observations from a re-analysis of the deposited data

Results flagged for a closer look

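In groups of 4 or 5 libraries, a library far from the others of its clone was looked for in 64 groups, and 3 were found, where chance alone gives about 1 in 20. COL4A1 measured 864 in control 1 against 583 to 625 in the other controls. ITGA9 measured 27.6 in control 1 against 35.6 to 37.0 in the other controls. COL3A1 measured 8.15 in knockout 3 against 1.47 to 2.25 in the other knockouts, a level of a few reads in each library.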

How the results depend on the processing

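The median of the tested members stayed negative in every setting, from -0.24 with quantile normalization to -0.05 with size factors from protein-coding rows. That last scaling moved the median of all rows from 0.01 to 0.11, and leaving out single libraries gave -0.21 to -0.13. DESeq2 called 4 members and 593 rows, against 0 and 150 by limma. The replicate block called 43 rows and no member. It also takes knockout 5, which has no partner, out of the fold changes, and leaving out knockout 5 alone called 82 rows, and leaving out control 3 and knockout 1 together, chosen after seeing the data, called 97. Leaving out single libraries called 0 to 1 members (1 without control 1, COL13A1, and 1 without knockout 1) and 80 to 184 rows.

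Of 30 named tested members, 22 kept their sign in all settings. COL1A2 turned to 0.028 with edgeR, 0.00072 with DESeq2, 0.038 with TMM, 0.10 with quantile normalization, 0.10 with protein-coding size factors and 0.0069 with the block. ITGAV turned to 0.021 with edgeR, 0.015 with TMM, 0.047 with quantile normalization, 0.073 with protein-coding size factors and 0.0013 with the block. COL23A1 turned to -0.0077 with quantile normalization, -0.056 with the block and -0.12 without control 3 and knockout 1, and ITGA2 to 0.056 with protein-coding size factors and 0.059 with the block. Without control 3 and knockout 1, ITGA5 turned to -0.15, ITGAE to 0.081 and LAMA1 to -0.043. Over single libraries left out, the ranges that cross 0 were -0.13 to 0.10 (COL1A2), -0.15 to 0.19 (COL23A1), -0.17 to 0.16 (ITGA2), -0.061 to 0.20 (ITGA5), -0.27 to 0.083 (ITGAE), -0.12 to 0.032 (ITGAV), -0.054 to 0.12 (ITGB3BP) and -0.025 to 0.20 (LAMA1). The causes were not tested. Depth limits the 18 members under the filter, which had 0 to 97 reads over all libraries.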
